A study of Acipenser transmontanus and Acipenser medirostris with 18 samples.

Results

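The cathepsins, their cystatin inhibitors and a set of lysosomal proteins were followed through PacBio Iso-Seq libraries of 2 sturgeon species. Members were all transcripts whose sterlet protein name holds cathepsin (procathepsin included), cystatin, legumain, prosaposin, lysosome-associated membrane glycoprotein or lysosome membrane protein 2, and counts were summed over each PacBio locus. The rule found 165 transcripts at 31 of the 13249 loci, with 19319 of 2734415 counts. The 16 loci with at least 100 counts held 99.3% of the member counts and are named below by protein and locus. The other 15 held 2 to 45 counts each. The study asked which genes are active in primary epithelial cultures of white sturgeon (Acipenser transmontanus) and green sturgeon (Acipenser medirostris) and in the tissues from which such cultures start.

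The libraries comprised 1 green sturgeon library of fibroblasts and adipocytes, 6 green epithelial cultures, 5 white epithelial cultures and 6 white tissues. The green cultures came from ampullae of Lorenzini (the electroreceptor pits of the snout, cultures 5 and 6), upper palate (culture 1 from a male and 4 from a female), mouth (2, labelled as its protrusible rim) and esophagus (3). The white cultures came from mouth (1, 4 and 5) and skin (2 and 3). Their values are given below in the order mouth 1, 4 and 5 and then skin 2 and 3. Each tissue gave 1 library, from dorsal skin (6), barbel (1), mouth (4), esophagus (5), ampullae (2) and upper palate (3). All fish were labelled octoploid except that of white mouth culture 4, which was dodecaploid. By the study's methods, explants were put in culture without trypsinization for white sturgeon and after it for green sturgeon, so this step cannot be told apart from species. Epithelial cells were first propagated on a feeder layer. Cultures were grown to confluence in serum-containing medium with a rho kinase inhibitor and growth factors. No agent was tested, and no fish age was used here. The labels do not say which libraries share a fish, so p-values measure the spread between libraries only, and no green tissue library was used here.

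Cathepsins are proteases that work mainly in the acidic lysosome. Cathepsins B, H, L and Z use a cysteine in the active site and cathepsin D uses aspartates, while legumain is a further cysteine protease that cuts after asparagine and helps to process cathepsins. Cystatins bind and block cysteine cathepsins and not cathepsin D. Prosaposin is the precursor of the saposins, small proteins that help lysosomal enzymes to break down sphingolipids. Lysosome-associated membrane glycoprotein 2 (LAMP2) and lysosome membrane protein 2 (LIMP2) sit in the lysosomal membrane, and LIMP2 carries glucocerebrosidase there in mammals. In mammalian epidermis cathepsins D and L and a cystatin take part in the late differentiation of keratinocytes. Sturgeons descend from ancestors with duplicated genomes, so a protein name can stand at several loci.

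Levels are given as CPM, the counts of a locus divided by the total of its library and scaled to a common total. Each count is a full-length read, so levels were not divided by transcript length. Totals ran from 124136 to 302286 counts in the green cultures, from 90002 to 129568 in the white cultures and from 29797 to 204203 in the tissues, with 243012 in the fibroblast and adipocyte library. A single count was thus worth 3.31 CPM in the deepest library and 33.6 CPM in the shallowest, the esophagus tissue. The titles number the libraries in 3 sets of 6. Set 1 holds the white cultures and green ampullae culture 6, set 2 the remaining green libraries, and set 3 the tissues, so culture and tissue cannot be told apart from set, and species can be only through green culture 6. No pair of libraries in a group differed by as little as sampling noise. Keratins and other epithelial markers (43 loci) summed to 4074 CPM in the fibroblasts and adipocytes, 11110 to 97080 CPM in the green cultures, 44730 to 107900 CPM in the white cultures and 41550 to 192600 CPM in the tissues. Green ampullae culture 6 stood apart by its connective tissue markers, at 8042 CPM, where the other green cultures had 330 to 864 CPM.

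Member transcripts took 1.18% of all counts in the fibroblasts and adipocytes, 0.365% to 1.18% in the green cultures, 0.176% to 0.754% in the white cultures, against 0.295% to 0.655% in the tissues. Within a group the members tended to be high or low in the same libraries. White mouth culture 1 had the highest level of its group at 13 of the 16 named loci, and white mouth cultures 4 and 5 had the lowest at 8 and 7. Green ampullae culture 5 was lowest of the green cultures at 10 loci. The mouth tissue was highest of the tissues at 9. Summed epithelial markers moved the other way in the cultures, at 97080 CPM in green culture 5 and 11110 to 39990 CPM in the other green cultures, and at 107900 and 103100 CPM in white mouth cultures 4 and 5 and 44730 to 52700 CPM in the other white cultures. Their part in the levels of the members was not tested.

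**Figure D1:**
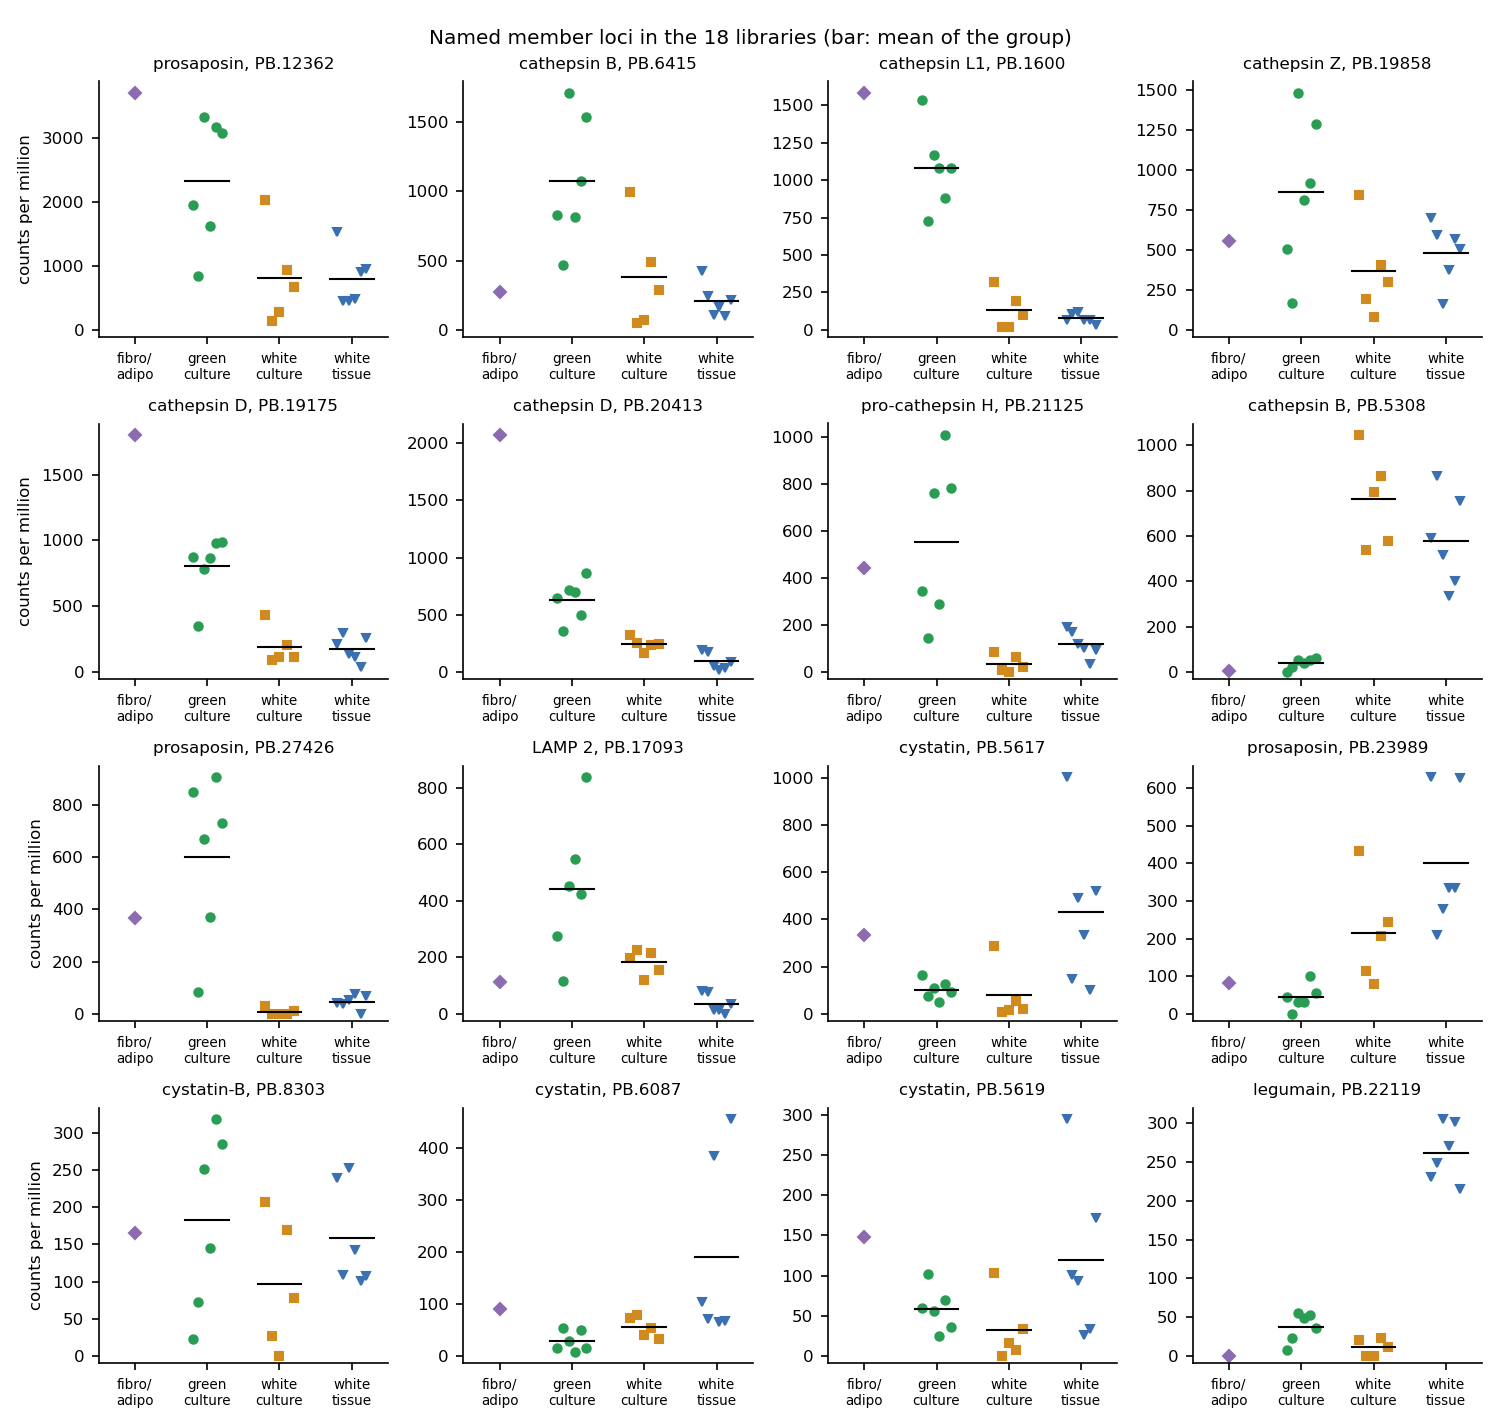
Levels in CPM (linear axes that differ between panels) of the 16 named loci in the green fibroblast and adipocyte library (diamond), 6 green cultures (circles), 5 white cultures (squares) and 6 white tissues (triangles), with a bar at the mean of each group of several libraries. Prosaposin PB.27426 stands at 82.7 to 906 CPM in the green cultures and at most 31.0 CPM in the white cultures, whereas cathepsin B PB.5308 stands at 0 to 62.1 CPM in the green cultures and 540 to 1044 CPM in the white cultures, and legumain stands at 216 CPM or more only in the tissues.

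Green and white cultures differed at most of the member loci that could be tested. Cathepsins L1, H and D (both loci), 1 of the cathepsin B loci, LAMP2 and a pair of prosaposin loci were higher in green cultures, and the other cathepsin B locus and another prosaposin locus were lower. Of 13 member loci that passed the filter on low counts, 8 were called higher and 2 lower by edgeR's quasi-likelihood test at an adjusted p of 0.05. A locus could pass that filter through 1 group alone. Prosaposin PB.27426, pro-cathepsin H and cathepsin L1, with 4, 19 and 69 counts in the white cultures, passed through the green cultures. By its member counts, so did cathepsin B PB.6415, with 200 white counts. Cathepsin B PB.5308 and prosaposin PB.23989, with 52 and 57 green counts, passed through the white cultures. The calls of these loci describe their counts and are no separate support. Over all 2125 loci tested the same calls made up 29.1% (higher) and 28.4% (lower). The members' median log2 change was 1.26, and that of all loci was 0.14. With the library set as a covariate, the species term rests on green ampullae culture 6 alone against the white cultures. That culture stood apart by its connective tissue markers, so no calls are given from this fit. Green ampullae culture 6, of the same set as the white cultures, was above all of those at 6 of the 16 named loci, below all of them at 3 and within their range at 7. Over all 3377 loci with at least 100 counts it was above at 32.8% and below at 27.4%, so these counts are given as values and not as a result about the members.

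Legumain, 2 cystatin loci, pro-cathepsin H and prosaposin PB.23989 were lower in white cultures than in the tissues, and LAMP2 and cathepsin D PB.20413 were higher. Of 14 member loci tested, edgeR called 2 higher and 5 lower at an adjusted p of 0.05, beside 27.6% (higher) and 29.3% (lower) of all 1863 loci, so that the share of members called was near that of all loci. LAMP2 and cathepsin D PB.20413 passed the filter on low counts through the white cultures alone. Legumain, pro-cathepsin H and cystatin PB.5617 passed it through the tissues alone. The calls of these loci describe their counts and are no separate support. The members' median log2 change was -0.73 and that of all loci was -0.04. Without TMM scaling the median of all loci moved to 0.27 and that of the members to -0.34, so the gap between them was -0.61 in place of -0.69, and the calls over all loci were 600 higher and 405 lower in place of 514 and 546. With only the mouth and skin libraries, 4 members were called lower (legumain, pro-cathepsin H and the 2 cystatins) and 0 higher.

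**Figure D2:**
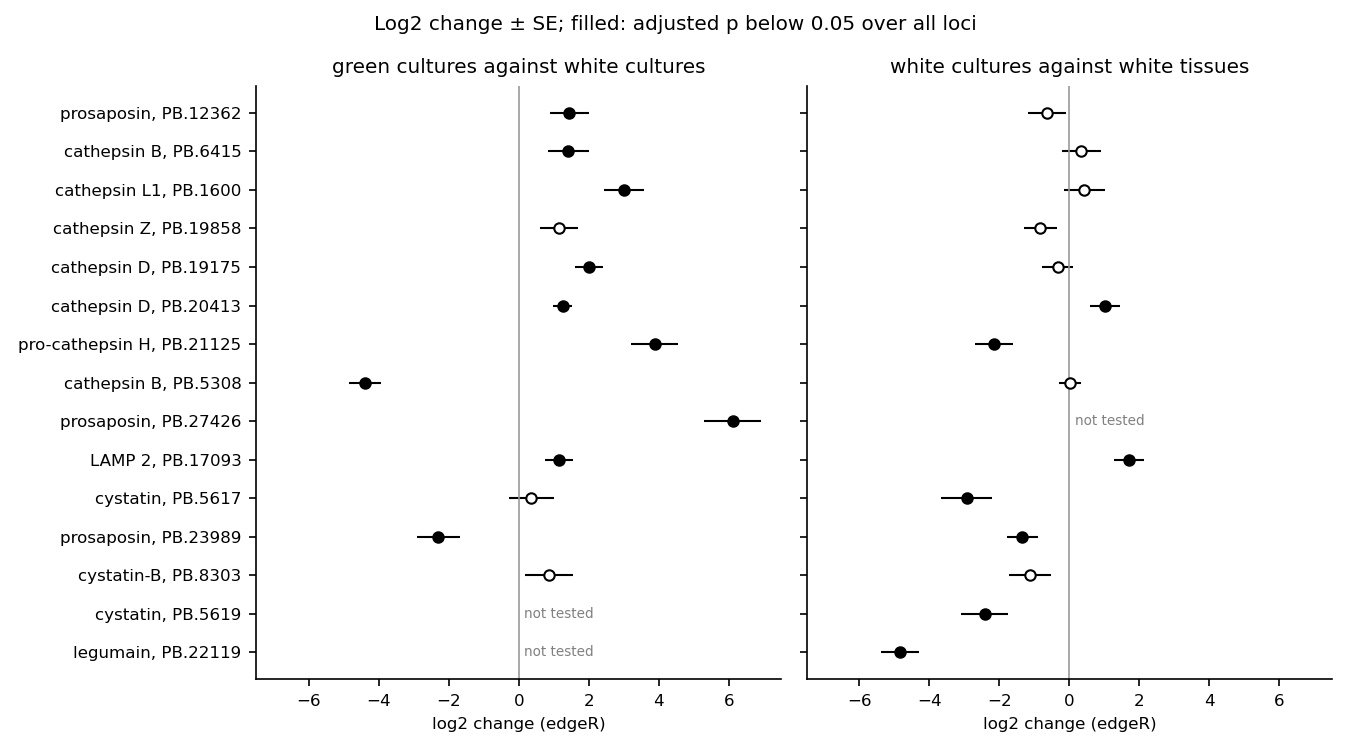
Log2 change with its SE (horizontal axis) of 15 named loci in green cultures (n = 6) against white cultures (n = 5), left, and in white cultures against white tissues (n = 6), right, from edgeR. Filled points passed an adjusted p of 0.05 over all loci, and loci under the filter on low counts are marked as not tested. Prosaposin PB.27426 at 6.10 and cathepsin B PB.5308 at -4.38 lie farthest out on the left, and legumain at -4.84 on the right.

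Cathepsin L1, an endopeptidase of the lysosome, was among the members that differed most between the species. PB.1600 had 728, 1079 and 1538 CPM (lowest, median and highest) in the green cultures, against 321, 17.4, 16.0, 193 and 100 CPM in the white cultures. All green cultures were above all white cultures, and 1 dominant transcript held 92.4% of the counts of the locus. The log2 change was 3.00 (SE 0.57, edgeR adjusted p = 0.00041), and 3.64 without white mouth culture 1. PB.1600 passed the filter on low counts through the green cultures, where it is high, so the call only describes these values. The white tissues had 34.3, 65.8 and 119.5 CPM, within the range of the white cultures, and the log2 change of white cultures against tissues was 0.42 (SE 0.58, edgeR adjusted p = 0.557). The transcripts behind these levels differed. The dominant transcript, PB.1600.2, held 54 of the 69 counts of the white cultures and 0 of the 45 counts of the tissues.

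Pro-cathepsin H, an aminopeptidase, had the widest change of the cathepsins after 1 cathepsin B locus. PB.21125 had 142, 553 and 1007 CPM in the green cultures, against 82.7, 8.70, 0, 61.7 and 22.2 CPM in the white cultures. The groups did not overlap (log2 change 3.88, SE 0.67, edgeR adjusted p = 0.000195). White cultures were in turn lower than the tissues, which had 33.6, 111 and 191 CPM (log2 change -2.15, SE 0.54, edgeR adjusted p = 0.00289), with overlap of the ranges. The white cultures rest on 19 counts in all, none of them in mouth culture 5. PB.21125 passed the filter on low counts through the green cultures and, against the tissues, through the tissues. Both calls thus only describe these values.

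Cathepsin Z, a carboxypeptidase, passed the test in neither comparison. PB.19858 had 165, 866 and 1486 CPM in the green cultures and 848, 191.5, 80.2, 409 and 300.0 CPM in the white cultures (log2 change 1.14, SE 0.54, edgeR adjusted p = 0.0826). Its tissues had 159, 540 and 701 CPM, and white cultures stood at a log2 change of -0.83 from them (SE 0.47, edgeR adjusted p = 0.141). The calls turned on single libraries. Without white mouth culture 1, the highest of its group, the log2 change was 1.70 for green against white cultures (edgeR adjusted p = 0.016) and -1.29 for white cultures against tissues (edgeR adjusted p = 0.029), and without green ampullae culture 5 it was 1.40 for green against white cultures (edgeR adjusted p = 0.0191).

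Cathepsin B, which cuts as an endopeptidase and as a carboxypeptidase, was carried by a pair of loci that moved in opposite directions between the species. PB.5308 had 0, 45.7 and 62.1 CPM in the green cultures, against 1044, 540, 794, 864 and 578 CPM in the white cultures. No green culture came near a white culture, and green ampullae culture 6, from the set of the white cultures, had 0 counts, which allows up to 22.4 CPM. The log2 change was -4.38 (SE 0.46, edgeR adjusted p = 2.27e-06). PB.6415 had 466.4, 953 and 1709 CPM in the green cultures, against 993, 52.2, 72.2, 486 and 289 CPM in the white cultures. By its member counts it passed the filter on low counts through the green cultures. Here the ranges overlapped, and the log2 change of 1.42 (SE 0.59, edgeR adjusted p = 0.0494) was lost, with adjusted p between 0.0507 and 0.107, without green culture 2, 3 or 4 or without white culture 2, 3, 4 or 5, while it was 2.17 (adjusted p = 0.00481) without white culture 1.

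Summed over both loci, cathepsin B averaged 1110 CPM in green and 1143 CPM in white cultures (log2 change -0.09, SE 0.35, edgeR adjusted p = 0.831). The difference between the species thus lay in the locus that took the counts. PB.6415 held 98.5% of cathepsin B counts in the fibroblasts and adipocytes and 95.3% to 100% in the green cultures, but 8.33% to 48.7% in the white cultures, against 17.0% to 41.7% in the white tissues. In white sturgeon the tissues had 335, 554 and 864 CPM of PB.5308 and 101, 191.5 and 422 CPM of PB.6415. White cultures did not pass the test against them at either locus (log2 change 0.02, SE 0.33, edgeR adjusted p = 0.96 for PB.5308, and 0.34, SE 0.56, adjusted p = 0.629 for PB.6415). Reads of both species had been aligned to the genome of another sturgeon, the sterlet, and how that divides reads between similar loci was not tested.

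**Figure D3:**
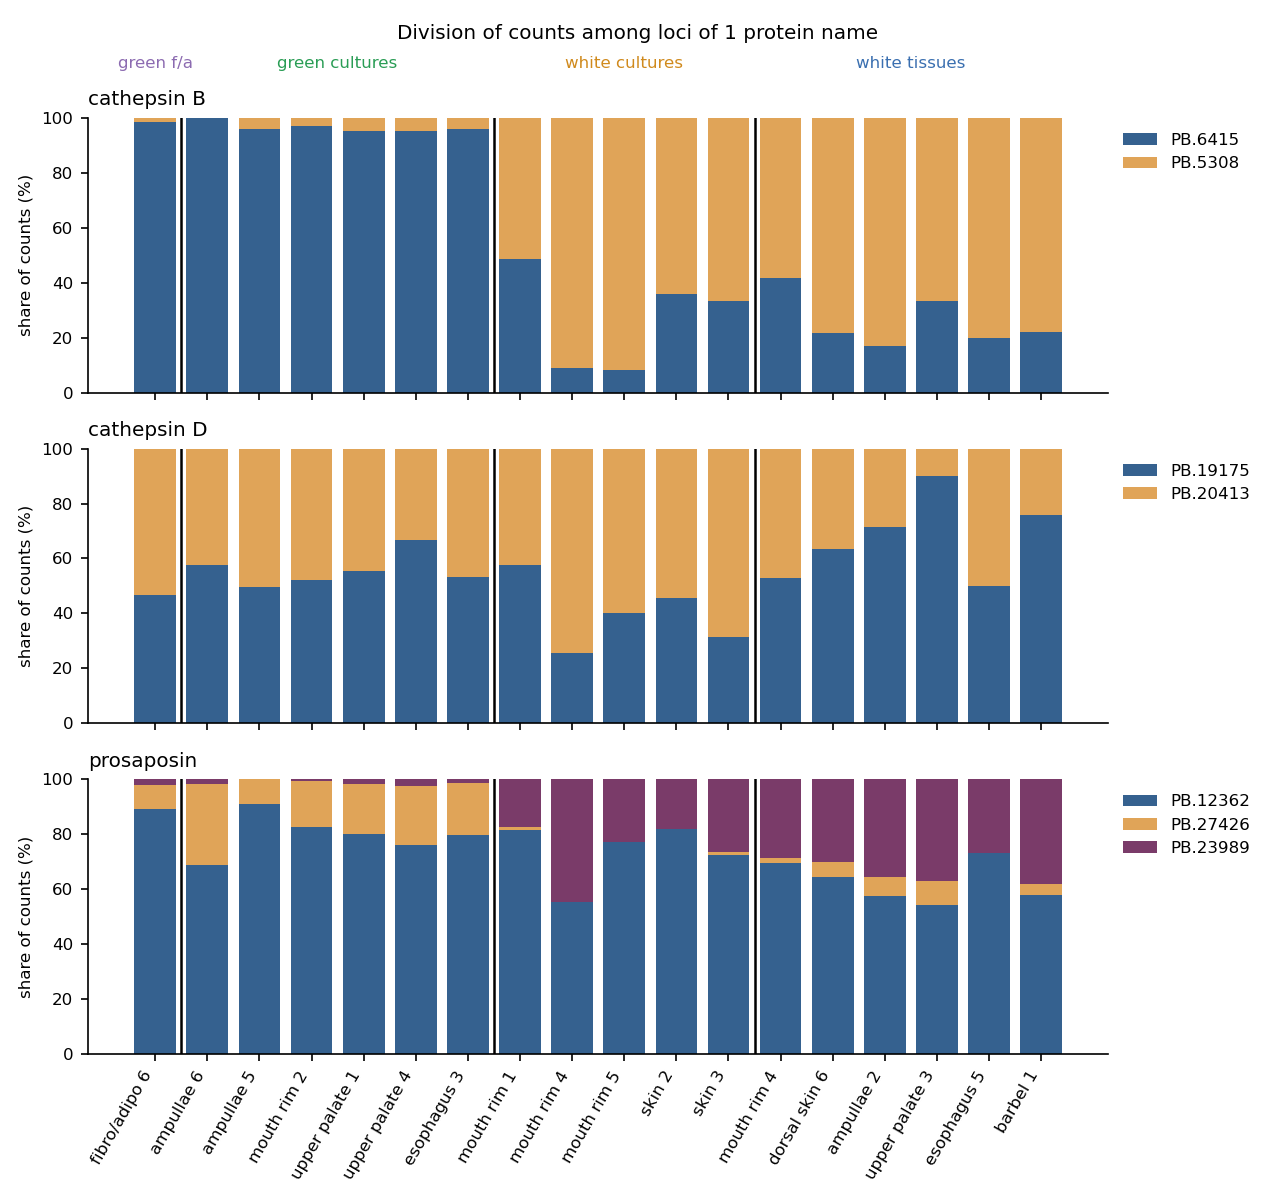
Percent of the counts of each protein name at its loci (vertical axes, stacked to 100%) for cathepsin B, cathepsin D and prosaposin in all 18 libraries, ordered as the fibroblast and adipocyte library (f/a), green cultures, white cultures and white tissues. PB.6415 takes at least 95.3% of cathepsin B in every green culture and at most 48.7% in any white library, while prosaposin PB.23989 takes at most 2.44% in the green cultures and at least 17.4% in the white libraries.

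Cathepsin D, the aspartic cathepsin, was higher in green cultures at both of its loci. PB.19175 had 351, 872 and 990 CPM in the green cultures, against 434, 87.0, 112, 201 and 111 CPM in the white cultures. Only green ampullae culture 5, at 351 CPM, lay below the highest white culture (log2 change 2.01, SE 0.41, edgeR adjusted p = 0.000723). PB.20413 had 357, 672 and 866 CPM in the green cultures, against 321, 252, 169, 239 and 244 CPM in the white cultures. The ranges did not overlap (log2 change 1.26, SE 0.27, edgeR adjusted p = 0.00121), though the lowest green and highest white culture were close. Summed over both loci the log2 change was 1.69 (SE 0.31, edgeR adjusted p = 0.000264).

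The loci of cathepsin D differed in their relation to tissue. PB.20413 was higher in white cultures than in the tissues, which had 12.9, 68.2 and 191 CPM (log2 change 1.02, SE 0.42, edgeR adjusted p = 0.0451). That call was lost, with adjusted p between 0.0593 and 0.113, without any 1 of white cultures 1 to 4 or of tissues 1, 2, 3 and 5. In this comparison the locus passed the filter on low counts through the white cultures, where it is high. PB.19175 had 33.6, 174 and 296 CPM in the tissues and did not pass the test (log2 change -0.34, SE 0.44, edgeR adjusted p = 0.533). PB.19175 held 25.6% to 57.5% of cathepsin D counts in the white cultures, against 50.0% to 90.0% in the tissues, and the smallest tissue sums were of 2 and 10 counts.

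Legumain was far lower in white cultures than in every tissue. PB.22119 had 20.7, 0, 0, 23.2 and 11.1 CPM in the white cultures, against 216, 260 and 305 CPM in the white tissues. No white culture came near a tissue. The tissues had 262 ± 37.0 CPM (SD, n = 6), on 9 to 44 counts each. The log2 change was -4.84 (SE 0.54, edgeR adjusted p = 4.33e-06), on 6 counts in the white cultures and 158 in the tissues. Legumain passed the filter on low counts through the tissues, where it is high. The green cultures had 7.47, 42.4 and 55.7 CPM, too few counts for the test against the white cultures, and the fibroblasts and adipocytes had 0 counts, which allows up to 12.3 CPM.

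Markers of leukocytes were also lower in the white cultures than in the tissues. The list of 9 loci summed to 3.31 to 51.1 CPM in the green cultures, with 6 loci above 0, and to 0 to 20.7 CPM in the white cultures, with 1 above 0, against 942 to 5360 CPM in the tissues, with all 9 above 0. With every match on the word immunoglobulin, many of which name proteins of other cells, the 25 loci summed to 281 to 610 CPM in the white cultures and 1012 to 5431 CPM in the tissues. Their leading locus, PB.14131, named for the HLA class II gamma chain (the invariant chain that cysteine cathepsins trim in antigen-presenting cells), was at 0 to 20.7 CPM in the white cultures and 841 to 5089 CPM in the tissues. Its log2 change was -8.38 (SE 0.74, edgeR adjusted p = 1.63e-06). Mucous secretion markers, of which no locus could be tested, summed to 31.0 to 189 CPM in the white cultures and 146 to 3222 CPM in the tissues, with overlap. Connective tissue markers (13 loci) summed to 610 to 2084 CPM in the white cultures and 302 to 1347 CPM in the tissues, with overlap. Of 2 tested, 1 was higher in white cultures, decorin PB.13114 (log2 change 2.09, SE 0.60, edgeR adjusted p = 0.00674). On the blood list, 5-aminolevulinate synthase PB.17729 was lower in white cultures (log2 change -1.89, SE 0.42, edgeR adjusted p = 0.00116). It reached 1587 CPM in the green cultures and 1090 CPM in the tissues, and hemoglobin had 2 counts in all. This locus thus cannot be read as a marker of blood alone. Of 14 epithelial loci tested, 3 were higher and 7 lower in white cultures. The part of these cell types in the differences between culture and tissue was not tested, and fewer cells of a type and less RNA per cell cannot be told apart in such libraries.

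The cystatins were carried mainly by 4 loci, of which 3 are named only cystatin and 1 cystatin-B, the name of a cytosolic inhibitor in mammals. PB.5617 had 290, 8.70, 16.0, 54.0 and 22.2 CPM in the white cultures, against 101, 413 and 1003 CPM in the tissues. Apart from mouth culture 1 the white cultures lay below all tissues (log2 change -2.93, SE 0.72, edgeR adjusted p = 0.00254, and -4.33 without that culture). PB.5617 passed the filter on low counts through the tissues, where it is high. PB.5619 had 103, 0, 16.0, 7.72 and 33.3 CPM in the white cultures, against 25.8, 97.1 and 295 CPM in the tissues (log2 change -2.42, SE 0.67, edgeR adjusted p = 0.00536, and -3.42 without white mouth culture 1). PB.6087 averaged 55.6 ± 19.6 CPM in the white cultures and 191 ± 180 CPM in the tissues (SD, n = 5 and 6), where the barbel and ampullae tissues had 455 and 385 CPM and the others 64.5 to 104 CPM. It passed no filter for a test.

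Cystatin-B PB.8303 varied within every group and passed neither test. It had 22.4, 198 and 318 CPM in the green cultures, 0 to 207 CPM in the white cultures and 101, 125 and 252 CPM in the tissues. Its log2 change was 0.86 (SE 0.70, edgeR adjusted p = 0.3) for green against white cultures and -1.13 (SE 0.59, edgeR adjusted p = 0.111) for white cultures against tissues. Between the cultures, PB.5617 had 48.3, 101 and 164 CPM in green, and its log2 change from white was 0.36 (SE 0.64, edgeR adjusted p = 0.647). Without white mouth culture 1 this was 1.88 (edgeR adjusted p = 0.00642). PB.5619, at 24.2, 57.7 and 103 CPM in the green cultures, was not tested there.

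The sums of proteases (cathepsins and legumain) and of cystatins differed in which groups stood apart, and are given as a description with no test. The protease sum includes cathepsin D, which cystatins do not block. It leaves out dipeptidyl peptidase 1 (cathepsin C, described below), which averaged 2110 CPM in the green cultures, 379 CPM in the white cultures and 717 CPM in the tissues. Proteases averaged 5091 ± 1646 CPM in the green cultures (n = 6), 2125 ± 1214 CPM in the white cultures (n = 5) and 2004 ± 567 CPM in the tissues (n = 6, SD). The green cultures had 2273, 5113 and 6729 CPM, against 4074, 1149, 1243, 2501 and 1656 CPM in the white cultures and 1470, 1857 and 2709 CPM in the tissues. Cystatins averaged 379 ± 136 CPM in the green cultures, 264 ± 247 CPM in the white cultures and 916 ± 534 CPM in the tissues. The green cultures had 226, 371 and 575 CPM of cystatins, against 683, 113, 72.2, 286 and 167 CPM in the white cultures and 336, 894 and 1657 CPM in the tissues. Green cultures were thus high in proteases, and tissues in cystatins.

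The ratio of protease to cystatin counts was 7.35 to 20.3 in the green cultures, 5.93, 9.81, 16.4, 8.65 and 9.64 in the white cultures, against 1.25 to 5.86 in the tissues. All 11 cultures were above all 6 tissues, but white mouth culture 1 at 5.93 and the dorsal skin tissue at 5.86 nearly met. The mean log2 ratio was 3.73 ± 0.56 in the green cultures, 3.26 ± 0.52 in the white cultures and 1.30 ± 0.89 in the tissues (SD). Cystatins made up 4.62% to 11.9% of the summed counts of proteases and cystatins in the green cultures, 5.49% to 14.3% in the white cultures, against 14.5% to 44.4% in the tissues. The share in the esophagus tissue, 17.9% of 56 counts, had a Wilson 95% interval of 10% to 29.8%, which covers counting error only.

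**Figure D4:**
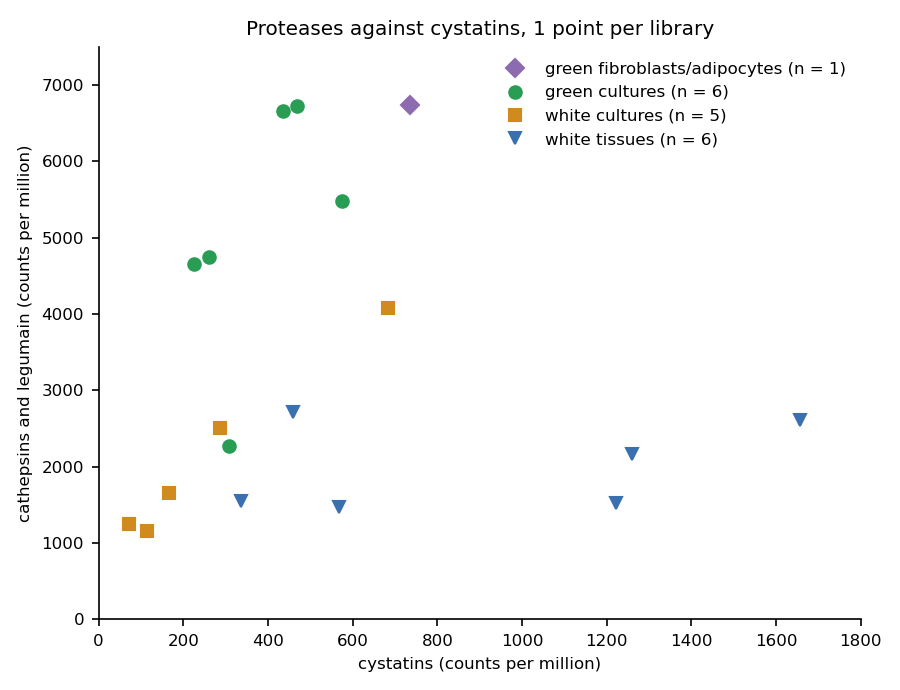
Summed cathepsins and legumain (vertical axis) against summed cystatins (horizontal axis), both in CPM, with 1 point per library and the groups by colour and shape. The fibroblast and adipocyte library has 6736 CPM of proteases and the green cultures reach 6729 CPM, and 4 of the 6 tissues lie beyond 560 CPM of cystatins with 1470 to 2604 CPM of proteases. Also beyond 560 CPM of cystatins lie white mouth culture 1 (683 CPM), green upper palate culture 4 (575 CPM) and the fibroblast and adipocyte library (737 CPM).

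Culture stood above tissue in this ratio at each of the 5 sites with both. At the mouth the ratio was 14.3 in the green culture and 5.93 to 16.4 in the white cultures, against 1.57 in the tissue. In skin it was 8.65 and 9.64 in the white cultures and 5.86 in the tissue. At the other sites cultures were green and tissues white, so species and culture cannot be told apart. The ampullae had 17.9 and 7.35 in culture against 1.25 in tissue, the upper palate 20.3 and 9.49 against 2.57, and the esophagus 15.3 against 4.43. The barbel tissue, which had no culture, had 1.72. Among the tissues the ampullae, mouth and barbel had the most cystatins (1221, 1657 and 1259 CPM), and skin the most proteases (2709 CPM).

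Prosaposin was the most abundant protein name among the members. Of its 3 main loci, PB.12362 held most counts in both species, while PB.27426 and PB.23989 were divided between the species. PB.12362 had 850, 2518 and 3339 CPM in the green cultures, against 2037, 139, 273, 934 and 667 CPM in the white cultures. White mouth cultures 4 and 5 were the lowest of all 18 libraries. The log2 change was 1.45 (SE 0.55, edgeR adjusted p = 0.0336), and the call was lost, with adjusted p between 0.0532 and 0.0770, without green culture 2 or without white culture 2, 3, 4 or 5, while the log2 change was 2.13 (edgeR adjusted p = 0.00318) without white culture 1. The tissues had 451, 698 and 1537 CPM, and white cultures did not pass the test against them (log2 change -0.64, SE 0.55, edgeR adjusted p = 0.331).

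PB.27426 and PB.23989 went opposite ways. PB.27426 had 82.7, 700 and 906 CPM in the green cultures, against 31.0, 0, 0, 0 and 11.1 CPM in the white cultures, or 751 against 4 counts. All green cultures were above all white ones, green culture 6 of the white set among them at 851 CPM (log2 change 6.10, SE 0.81, edgeR adjusted p = 1.85e-05). The locus passed the filter on low counts only through the green cultures, where it is high, so the call only describes these values. Without white mouth culture 1, which held 3 of the 4 white counts, the log2 change was 7.59. White tissues had 0, 46.5 and 77.3 CPM, and white cultures against them were not tested. PB.23989 had 0, 38.7 and 102 CPM in the green cultures, against 434, 113, 80.2, 208 and 244 CPM in the white cultures, and only the highest green culture overlapped the white range (log2 change -2.30, SE 0.61, edgeR adjusted p = 0.005). PB.23989 passed the filter through the white cultures, where it is high.

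Within white sturgeon PB.23989 was also lower in culture, since the tissues had 210, 335 and 629 CPM (log2 change -1.34, SE 0.45, edgeR adjusted p = 0.0173). That call was lost, with adjusted p between 0.0531 and 0.0666, without white culture 2, 4 or 5, and also without TMM scaling (log2 change -0.95, edgeR adjusted p = 0.0857). Some transcripts of PB.23989 matched the same sterlet protein as PB.27426, and how reads of the species divide between these loci was not tested, as for cathepsin B. Summed over all prosaposin loci the log2 change was 1.49 in green against white cultures (SE 0.52, edgeR adjusted p = 0.021) and -0.70 in white cultures against tissues (SE 0.52, edgeR adjusted p = 0.258).

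LAMP2, a main glycoprotein of the lysosomal membrane, was higher in culture than in tissue and higher in green than in white cultures. PB.17093 had 116, 437 and 837 CPM in the green cultures, against 197, 226, 120, 216 and 156 CPM in the white cultures. Green ampullae culture 5 alone lay below all white cultures (log2 change 1.15, SE 0.39, edgeR adjusted p = 0.021), and the call was lost, with adjusted p of 0.0569 and 0.0563, without white culture 3 or 5. The tissues had 0, 23.8 and 79.6 CPM. All white cultures were above all tissues (log2 change 1.71, SE 0.43, edgeR adjusted p = 0.00289), although the 29 tissue counts are few and the 0 counts of the esophagus tissue allow up to 101 CPM. In this comparison the locus passed the filter on low counts through the white cultures, where it is high. With only the mouth and skin libraries the log2 change was 0.93 and the call was lost (edgeR adjusted p = 0.125).

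The isoform names at this locus also differed by species. Isoform X2 took 82.5% of the 570 counts of the green cultures and 60% to 86.8% in a single green culture, against 15.7% of 102 counts in the white cultures and 6.67% to 26.3% in a single white culture. Isoform X4 took 9.47% in the green cultures, 79.4% in the white cultures, against 72.4% of 29 counts in the tissues. The fibroblasts and adipocytes resembled the green cultures here, with 74.1% X2 of 27 counts. The names are those of the closest sterlet protein, and differences in sequence between the species were not examined.

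**Figure D5:**
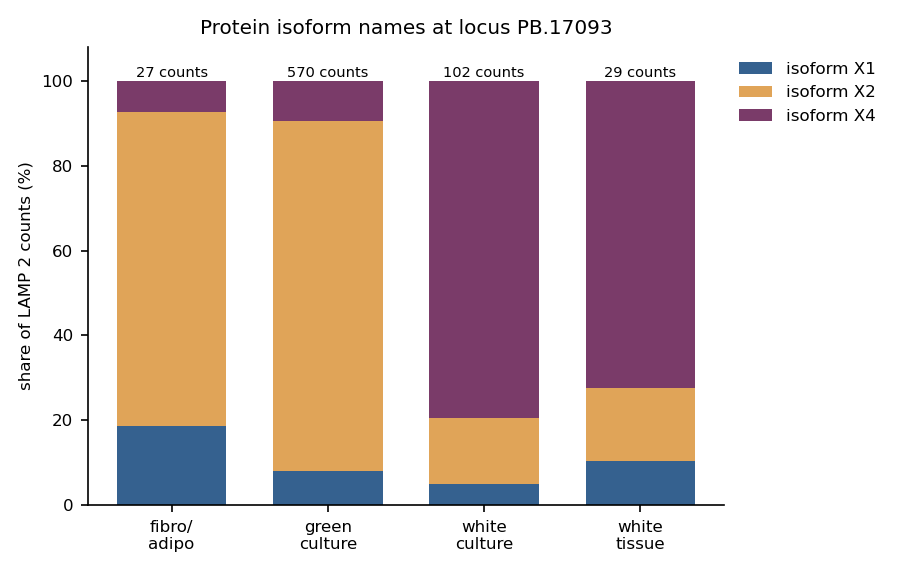
Percent of the counts at PB.17093 (vertical axis) that carry the sterlet names isoform X1, X2 and X4 of lysosome-associated membrane glycoprotein 2, summed over the libraries of each group, with the counts behind each bar above it. X2 leads in the fibroblast and adipocyte library at 74.1% and in the green cultures at 82.5%, and X4 leads in the white cultures at 79.4% and the white tissues at 72.4%.

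Most loci were represented mainly by 1 transcript that had counts in both species. The dominant transcript held at least 89.8% of the counts at 11 of the 16 named loci, and transcripts seen in both species held at least 82.0% at every named locus. Here 1 count in each species was enough, so the measure does not show like use. At PB.27426 the dominant transcript held 777 of 840 green counts and 11 of 38 white counts. Cystatin transcripts chosen after their values were seen were also unevenly shared. At PB.6087, transcript PB.6087.3 had 62 counts in the 7 green libraries and 8 in the 11 white libraries, whereas PB.6087.1 had 1 count in green and 174 in white, with counts in all 11. At PB.5619, transcript PB.5619.4 had counts in all 7 green libraries (39 in all) and 0 in the white ones.

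The fibroblasts and adipocytes of green sturgeon, 1 library with no test, stood out by cathepsin D. PB.20413 had 2070 CPM (Wilson 95% 1897 to 2259) and PB.19175 had 1802 CPM (1641 to 1979), which is 2.39 and 1.82 times the highest green culture. Of the 16 named loci this library was above all green cultures at 7, below all at 3 and within their range at 6. Over all 3377 loci with at least 100 counts it was above at 25% and below at 21.4%. Above were also prosaposin PB.12362 at 3712 CPM, cathepsin L1 at 1580 CPM and the cystatins PB.5617, PB.6087 and PB.5619 at 333, 90.5 and 148 CPM. Below were cathepsin B PB.6415 at 276 CPM (217 to 350), LAMP2 at 111 CPM (76.4 to 162) and legumain at 0 (up to 12.3). The lowest green cultures had 116 CPM of LAMP2 and 7.47 CPM of legumain, so both differences lie within counting error. The interval of cathepsin L1, 1430 to 1746 CPM, likewise covers the highest green culture at 1538 CPM. Its protease sum was 6736 CPM and its cystatin sum 737 CPM, a ratio of 9.12 that lies within the range of the green cultures. That sum holds 3872 CPM of cathepsin D, which cystatins do not block. Its cysteine cathepsins alone were at 2864 CPM, within the 1542 to 5178 CPM of the green cultures, while its cystatins were above their highest, 575 CPM. Decorin, a connective tissue proteoglycan, was at 27580 CPM in this library and at 251 to 4077 CPM in the green cultures.

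Members with few counts are described by counts alone. LIMP2 was spread over 4 loci with 77 counts, at 20.4 to 48.3 CPM in the green cultures, 17.4 to 72.4 CPM in the white cultures and 0 to 13.3 CPM in the tissues, where only 2 counts were found. Cathepsin O had 14 counts, 12 of them in green cultures and 2 in white tissues, and cathepsin K had 2, both in the fibroblasts and adipocytes. A single transcript named cathepsin E-A had 2 counts at a locus of 329 that otherwise carries other names. It and 2 minor cystatin loci, in which member transcripts held under 80% of the counts, were left out of the counts of calls. The member named prosaposin receptor GPR37, a membrane receptor and not a lysosomal protein, had 2 counts.

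Other lysosomal genes were counted for comparison, in lists matched on names that also took in some other proteins, such as non-lysosomal glucosylceramidase. Over all loci tested, 29.1% were higher and 28.4% lower in green against white cultures. In white cultures against tissues the shares were 27.6% and 29.3%. Of the other lysosomal hydrolases (38 loci), 12 were tested between green and white cultures, where 6 were higher and 0 lower, with a median log2 change of 0.92. Their most abundant locus, PB.8348, is dipeptidyl peptidase 1, which is cathepsin C under another name and so escaped the rule. It had 986 to 2849 CPM in the green cultures, against 218 to 486 CPM in the white cultures (log2 change 2.37, SE 0.33, edgeR adjusted p = 2.7e-05). The tissues had 302 to 1063 CPM, and white cultures were lower (log2 change -1.26, SE 0.37, edgeR adjusted p = 0.00777). Of 10 hydrolases tested there, 1 was higher and 2 lower, with a median of 0.07.

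Subunits of the V-type proton ATPase, which acidifies the lysosome, went both ways. Between green and white cultures 6 of 14 tested loci were higher and 4 lower (median 0.64), and between white cultures and tissues 2 of 9 were higher and 2 lower (median -0.08). Genes of sorting and export gave 1 higher and 2 lower of 4 in green against white cultures and 2 higher and 0 lower of 4 in white cultures against tissues. They were led by CD63, a tetraspanin of late endosomes and lysosomes. PB.25651 had 0 to 10.96 CPM in the green cultures, against 3977 to 11540 CPM in the white cultures (log2 change -10.08, SE 0.51, edgeR adjusted p = 7.01e-09), and 611 to 2564 CPM in the tissues. The green fibroblasts and adipocytes had 0 CPM. Whether green reads of this gene were aligned to another locus or left without its name was not tested, so these values describe the locus only. Of other proteases and inhibitors, 2 of 9 were higher and 1 lower in green cultures, and 1 of 8 was higher and 3 lower in white cultures against tissues. Their leading locus PB.3154, a leukocyte elastase inhibitor, had 538 to 1508 CPM in the white cultures and 336 to 16080 CPM in the tissues (log2 change -2.71, SE 0.85, edgeR adjusted p = 0.0115).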

How the data were processed

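Per the study's methods, the authors processed full-length reads with IsoSeq3, aligned them to the sterlet genome (aligner not given in the sources used here), filtered transcripts with Sqanti3 at a minimum of 3 supporting reads, and named translated transcripts by blastp against sterlet proteins (e-value below 0.01, identity of at least 80%). The deposited values are whole-number read counts per transcript and library, not normalized. No molecular identifiers were used, so Wilson 95% intervals and the limits set by 0 counts (3 counts) cover counting error only.

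Counts were summed over each PacBio locus. edgeR 4.0.16 (R 4.3.3, limma 3.58.1) was run with TMM, filterByExpr, glmQLFit and glmQLFTest on all loci, with Benjamini-Hochberg adjustment over all loci tested, for green against white cultures and white cultures against white tissues. The SE is the log2 change over the square root of F. DESeq2 1.42.0 was an alternative, and both tools were tested on simulated data. Shares and ratios (0.5 counts added) were computed in Python 3.11.15 with pandas 2.3.3, numpy 2.4.6 and scipy 1.17.1. Whole loci were tested where member transcripts held at least 80% of the counts, a limit set after seeing the data.

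The members, lists and tests were chosen with earlier results of these data known. Named are all member loci with at least 100 counts (at most 30), with values per library for the 12 with most counts and those past the threshold, and otherwise the leading locus of each list. Lists were matched on protein names, and all matches on the word immunoglobulin were left out of the leukocyte list after seeing them, with the sums of the whole list given beside. The marker lists for blood and muscle gave 76.1 to 1599 CPM and 0 to 3.65 CPM in the green cultures, 148 to 476 CPM and 0 CPM in the white cultures and 451 to 1129 CPM and 0 to 13.3 CPM in the tissues. The alternatives were DESeq2, other filters, no TMM, a replicate block, sums over the protein name, an FDR of 0.01, fewer sites, species or library set as a covariate, other totals and leaving out each library. No sequences were used here.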

Additional observations from a re-analysis of the deposited data

Results flagged for a closer look

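In 57 groups of 5 or 6 libraries (16 loci, both sums and their ratio, in 3 groups), 2 held a library far from the others. Chance gives about 1 in 20, so this is no more than chance would give. Cathepsin D PB.19175 had 351 CPM in green ampullae culture 5, and the nearest green culture had 780 CPM. This library was the lowest green culture at 10 of the 16 named loci. Cystatin PB.5617 had 290 CPM in white mouth culture 1, and the nearest white culture had 54.0 CPM. That library was the highest white culture at 13 of the 16 loci. The cause was tested for neither.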

How the results depend on the processing

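The white cultures held few member counts, the esophagus tissue was shallow, and library set and culture or tissue cannot be told apart, so calls near the threshold are weak. In green against white cultures, members called higher numbered 8, and 13 of 24 with no filter on low counts, 5 at an FDR of 0.01 and 5 of 9 sums over the protein name. Members called lower there numbered 2, and 0 of the sums. With the library set as a covariate, or with only the mouth cultures, that comparison rests on 1 green culture, so no calls are given. In white cultures against tissues, members called higher numbered 2, and 1 at an FDR of 0.01, 1 with the stricter filter (at least 10 counts), 1 of 10 sums over the protein name and 0 with only the mouth and skin, while members called lower numbered 5, and 3 with the stricter filter and 3 of the sums. Leaving out 1 library gave 5 to 10 higher and 2 lower each time in green against white cultures, and 1 to 2 higher and 3 to 6 lower in white cultures against tissues, where pro-cathepsin H or cystatin PB.5619 fell under the filter without some tissues.

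The protease sum of white cultures minus tissues, 121 CPM, turned to -282 CPM with TMM-scaled totals and -149.5 CPM with only named transcripts in the total, and ranged from -367 to 365 CPM as each library was left out. The other differences of sums and ratios kept their sign. Log2 changes that never passed the test changed sign in white cultures against tissues: cathepsin B PB.6415 was -0.13 with only the mouth and skin, -0.034 with the replicate block and -0.31 to 0.72 with 1 library left out, cathepsin B PB.5308 was -0.19 with those sites, -0.052 with the stricter filter and -0.15 to 0.18, and cathepsin L1 was -0.12 to 0.78. In green against white cultures, cystatin-B was -2.09 with the set as a covariate.

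Same-numbered libraries of a comparison share only a number (correlations of their deviations -0.255 to 0.177). With the number as a replicate block, 2 members were higher and 5 lower in white cultures against tissues, and 9 higher and 2 lower in green against white cultures, with cathepsin Z added at a log2 change of 1.35 (edgeR adjusted p = 0.0129). DESeq2 called the same named members in both comparisons. Over all loci, no filter called 2691 and 3551 loci in place of 1060 and 1223.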
